A study of Mus musculus with 4 samples.

Results

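The genes described here are the Bcl2 family of cell survival and death regulators, measured in spleens of mice with and without the transcription factor Nrf2. Members were matched by gene symbol, from a list chosen with earlier results of these data known. Of 10 symbols looked for (Bcl2, Bcl2l1, Mcl1, Bcl2l2, Bax, Bak1, Bad, Bid, Bik and Bcl2l11), 9 are carried by a probe set in the platform annotation. They have 15 probe sets between them, out of 8251 genes named by a single-symbol probe set. Bax is not analysed here. Of the 15 member probe sets, 11 were bright enough to test, covering 8 genes, and the other 4 are given as values only.

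The Bcl2 family decides whether mitochondria of a stressed cell release cytochrome c and set off the caspases. Prosurvival members (Bcl2, Bcl-xL from Bcl2l1, Mcl1, and Bcl-w from Bcl2l2) hold the effectors Bax and Bak in check, and the BH3-only proteins (Bad, Bid, Bik, and Bim from Bcl2l11) neutralise the prosurvival members or activate the effectors. In the spleen, Bcl2 keeps resting lymphocytes alive, Mcl1 is needed by lymphocytes and neutrophils, Bcl-xL protects maturing red cell precursors, and Bim removes surplus and self-reactive lymphocytes.

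Total RNA came from whole spleens of female mice, 5 months old, with 2 samples from nrf2 -/- animals and 2 from nrf2 +/+ littermates. Both genotypes descend from heterozygotes made by crossing nrf2 +/+ mice of mixed C57B6/SJL origin with nrf2 -/- mice of mixed C57B6/129SVJ origin, so the animals differ in strain segments as well as at Nrf2. The labels place this age ahead of severe autoimmune disease, name no treatment, and do not say whether a sample is 1 mouse or a pool, so p-values here measure the spread between these samples only, which may be technical. The question addressed is which spleen transcripts differ when Nrf2 is missing, asked here of the genes that set the balance of survival and death.

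The labels were checked on Nfe2l2, the gene encoding Nrf2. It read 202.0 and 178.6 without Nrf2 and 3537.4 and 6321.1 in the littermates, 24.4-fold lower with values under the floor of 185.5 raised to it (limma adjusted p = 0.01995). Wild-type replicate 1 stood apart: its Pearson correlation with the other arrays, across tested probe sets, was 0.849 to 0.851, where the other 3 arrays reached 0.941 to 0.947 with their nearest neighbour. In 15.4% of the 7453 tested probe sets it lay over 2-fold outside the range of the other 3 arrays, against 0.738% to 1.84% for those. Its ratio of 3' to 5' signal on the Gapdh control probe sets, which rises with RNA breakdown or short labelled products, was 88.3. Knockout replicates 1 and 2 gave 25.5 and 34.8 there, and wild-type replicate 2 gave 8.07. On the actin control wild-type replicate 1 gave 14.4, the knockouts gave 19.3 and 16.1, and wild-type replicate 2 gave 8.86. Every array thus had a ratio of at least 8.07 on both controls, with wild-type replicate 2 the lowest. Because wild-type replicate 1 stood apart, each member is given below with all 4 arrays and, where it matters, without that one.

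Nrf2 acts by binding the antioxidant response element, whose core is TGACNNNGC (N is any base). This core was searched on both strands of the RefSeq promoter windows, which run from 250 bases before to 50 bases after a transcript start (build GRCm38.p6). The 13 windows of 9 members, Bax included, held 1 match (7.69%), against 12.4% of all 32851 windows. Bik had no window and was not searched. The match lay in 1 of the 3 windows of Bcl2l1, a gene on the minus strand of chromosome 2. This match was at -127 to -119 from the transcript start, in reverse orientation to the gene, so its core reads on the plus strand. It is shown beside the matches in the windows of Gclm and Txnrd1, well-known Nrf2 target genes chosen after the member windows had been searched; each line runs 5′ to 3′ along its gene with the matched core, as its reverse complement, in capitals. Of 7 such targets looked for, 5 had a window and 3 a match; the 8 windows of the 5 included 2 of Gstm1, 1 of Nqo1 and 2 of the 3 of Txnrd1 without one.
Bcl2l1 (chr2:152828598-152828626, minus strand): gtgagtcctgGCCCTGTCActtaactggc
Gclm (chr3:122245413-122245441, plus strand): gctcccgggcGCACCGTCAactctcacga
Txnrd1 (chr10:82859104-82859132, plus strand): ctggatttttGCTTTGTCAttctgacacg
A match says only that these letters occur in the window, and no match says nothing of sites elsewhere.

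Expression of the Bcl2 family was not distinguishable between the genotypes. None of the 11 tested member probe sets had an adjusted p under 0.05 in limma (lowest adjusted p = 0.992), and none reached an unadjusted p under 0.05. Over all 7453 probe sets, 4 (0.0537%) passed the adjusted threshold and 130 (1.74%; 0.778% higher and 0.966% lower in knockout spleen) the unadjusted one, so a count of 0 among 11 is near the background. Of the 11, 6 measured higher and 5 lower in knockout spleen, with a median log2 difference of 0.06 beside 0.04 over all tested probe sets. The median size of the difference, whichever its sign, was 0.22 for the members and 0.32 for all tested probe sets. In none of the 11 did the difference between genotypes exceed both gaps between replicates, which it did in 12.8% of all tested probe sets. The precision is that of 2 arrays per group: standard errors ran from 0.40 to 1.02 on the log2 scale.

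**Figure D1:**
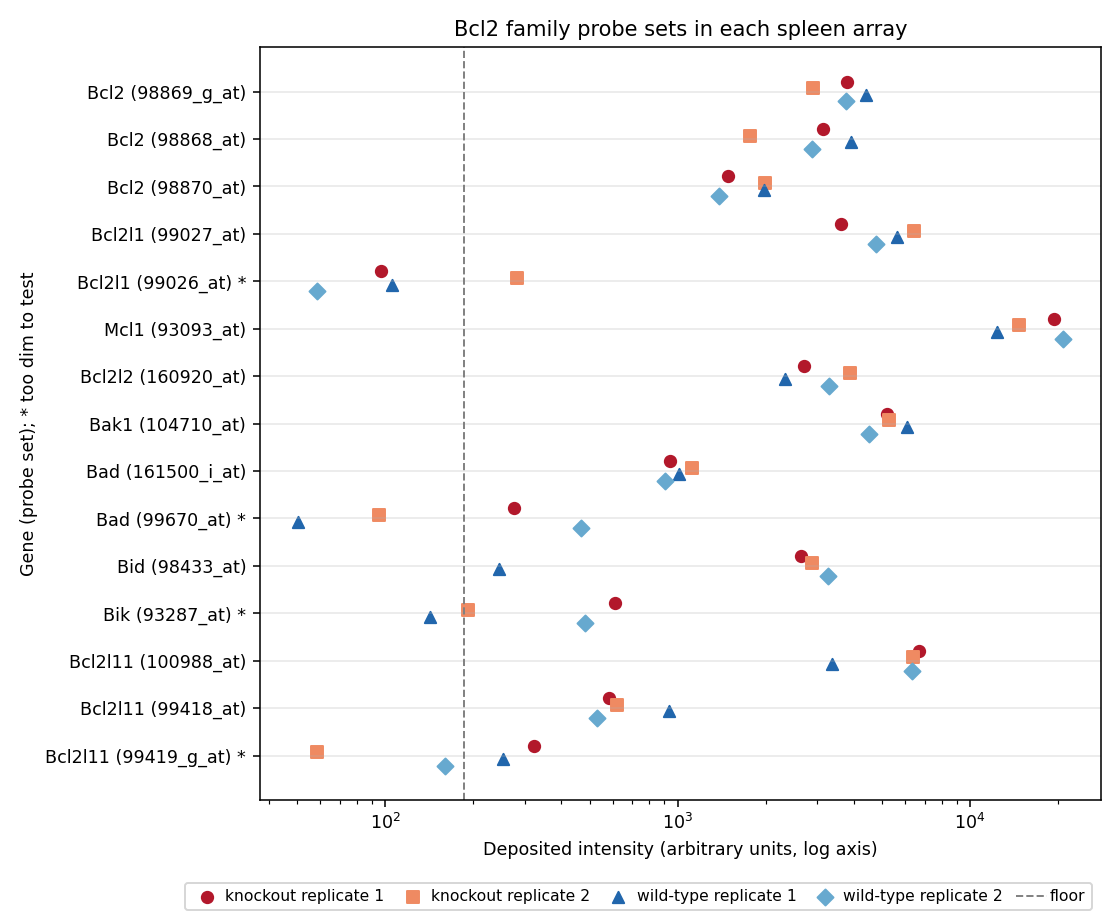
Deposited intensity (log axis, arbitrary units) of each Bcl2 family probe set in each of the 4 spleen arrays, with the floor of 185.5 as a dashed line and an asterisk on the 4 probe sets too dim to test. The Bid point of wild-type replicate 1 (244.3) stands far to the left of the other 3 (2634.9 to 3265.2); the next widest tested probe set is 98868_at of Bcl2 (1771.1 to 3909.7).

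Among the prosurvival genes, Bcl2 itself was measured by 3 probe sets made from the same source sequence. The brightest, 98869_g_at, read 3798.4 and 2900.8 in knockouts, versus 4401.6 and 3783.5 in wild types, a log2 difference of -0.30 (SE 0.40, with 2 arrays per genotype; 95% confidence interval -1.21 to 0.62; limma adjusted p = 0.992). The genotypes overlapped, and knockout replicate 2 was the lowest array. Probe set 98868_at read 3142.3 and 1771.1 against 3909.7 and 2887.0, a difference of -0.51 (SE 0.45, limma adjusted p = 0.992), again with knockout replicate 2 lowest. Without that array the differences of these 2 probe sets were -0.10 and -0.10. The remaining Bcl2 probe set, 98870_at, gave another order of arrays: 1483.0 and 1994.6 in knockouts, versus 1972.3 and 1385.6 in wild types, a difference of 0.06 (SE 0.42, limma adjusted p = 0.997), with knockout replicate 2 now the highest. That difference was -0.0016 with each array centred on its median and -0.019 after quantile normalization, so it has no settled direction.

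Knockout replicate 2 also had the lowest summed intensity of lymphocyte markers. The summed intensity of 8 B cell genes was 146917 in it and 170307 to 320554 in the other arrays, and that of 7 T cell genes was 19882 in it and 29369 to 42510 in the others. Gene by gene, Ms4a1 was lowest in wild-type replicate 2, Cr2 and Blk in knockout replicate 1, and Cd3g in wild-type replicate 1. The other genes of both lists were lowest in knockout replicate 2. The part of lymphocytes in the Bcl2 values was not tested. In whole spleen, fewer cells of a type and less RNA per cell cannot be told apart.

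Bcl2l1, whose main product Bcl-xL restrains Bax and Bak, read 3622.2 and 6440.3 in knockouts, versus 5610.2 and 4778.6 in wild types on probe set 99027_at. The knockout arrays held both the lowest and the highest value and so enclosed the wild type. The difference was -0.10 (SE 0.44, 95% confidence interval -1.12 to 0.92, limma adjusted p = 0.996), and it was 0.31 without knockout replicate 1 and -0.52 without knockout replicate 2. The low array, knockout replicate 1, was also the lowest in all 9 tested erythroid genes, whose summed intensity was 168950 in it and 250735 to 483118 in the others; their part in the Bcl2l1 values was not tested. The other Bcl2l1 probe set, 99026_at, read 96.7 and 282.6 against 105.8 and 58.5, with 3 of its 4 values below the floor, and was too dim to test.

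Mcl1, a short-lived protein that binds Bak and several BH3-only proteins, read 19319.8 and 14720.4 in knockouts, versus 12349.0 and 20796.8 in wild types. Here the wild-type arrays enclosed the knockout arrays. The difference was 0.07 (SE 0.45, 95% confidence interval -0.97 to 1.12, limma adjusted p = 0.997), 1.05-fold, and the interval reaches 2.17-fold higher and 1.96-fold lower in knockout spleen. It was 0.45 against wild-type replicate 1 alone and -0.30 against wild-type replicate 2 alone. The summed intensity of 12 neutrophil and myeloid granule genes, from cells that depend on Mcl1, was 178515 in wild-type replicate 2 and 536241 to 716255 in the other arrays, so Mcl1 was highest in the array where these genes were lowest. Their part in the Mcl1 values was not tested.

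Bcl2l2, which encodes the prosurvival protein Bcl-w, read 2698.9 and 3879.2 in knockouts, versus 2329.0 and 3301.9 in wild types. The 2 genotypes interleaved, with a difference of 0.22 (SE 0.42, 95% confidence interval -0.75 to 1.19, limma adjusted p = 0.992). Leaving out wild-type replicate 1 gave -0.029, and leaving out knockout replicate 2 gave -0.039. The 4 prosurvival genes, each by its brightest probe set, thus gave 2 higher and 2 lower, with a median difference of -0.01.

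Of the effectors, which form the pores in the outer mitochondrial membrane, Bak1 was measured. Its values were the closest of all between genotypes: 5185.8 and 5277.0 in knockouts, versus 6069.9 and 4534.5 in wild types. The knockout arrays lay between the wild-type arrays and differed from each other by 1.02-fold, against 1.34-fold for the wild type. The log2 difference was -0.0042 (SE 0.40, 95% confidence interval -0.92 to 0.91, limma adjusted p = 0.999), and 0.7% of tested probe sets had a smaller one. The interval runs from 1.90-fold lower to 1.89-fold higher in knockout spleen, and it reflects only the spread between these samples.

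**Figure D2:**
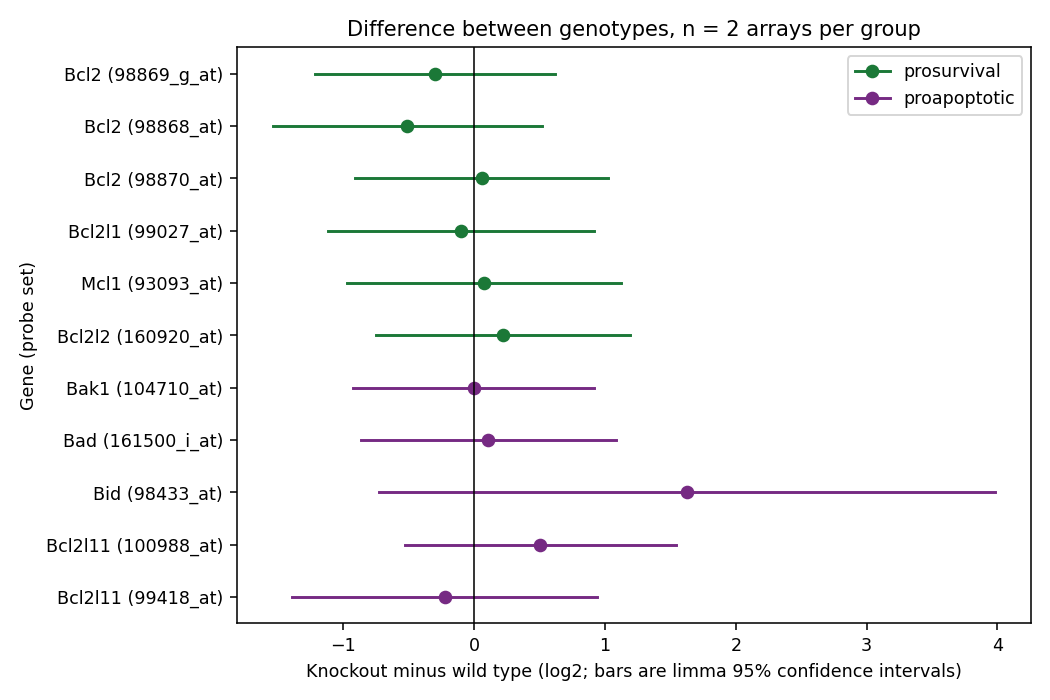
Knockout minus wild type on the log2 scale for the 11 tested Bcl2 family probe sets (points) with limma's 95% confidence intervals (bars), n = 2 arrays per group, prosurvival genes in green and proapoptotic genes in purple. Every interval spans 0, and that of Bid, from -0.73 to 3.98, is the widest.

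Of the BH3-only genes, Bid had the largest difference and the least secure one. Bid is cut by caspase-8 and granzyme B and carries a death receptor signal to the mitochondria. Probe set 98433_at read 2634.9 and 2883.0 in knockouts; wild-type replicate 1 gave 244.3 and replicate 2 gave 3265.2. The knockout arrays agreed within 1.09-fold, and wild-type replicate 2 lay above both, so the genotypes overlapped. The gap between both wild types was 13.4-fold, a spread exceeded by 0.0403% of tested probe sets with the floor applied and by 0.242% without it. The mean difference of 1.63 (SE 1.02, 95% confidence interval -0.73 to 3.98, limma adjusted p = 0.992) therefore rested on 1 array. Without wild-type replicate 1 it turned to -0.24 (limma adjusted p = 1), and without wild-type replicate 2 it was 3.50 (limma adjusted p = 0.0583). With a wild-type array left out, that group holds 1 sample, which is assumed to vary like the knockout pair.

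The low Bid value was among the lowest, relative to the other arrays, in the array it came from. In wild-type replicate 1 Bid lay 10.8-fold below the lowest of the other 3 arrays, and 1 of 7453 tested probe sets lay further below with values raised to the floor of 185.5. On the intensities as deposited 14 did (0.188%). The 1 that did so with the floor, named after its values were seen, belongs to Adgre1, the macrophage surface protein F4/80, which read 123.5 in wild-type replicate 1 and 2349.9 to 3644.3 in the other arrays. The summed intensity of the 9 macrophage markers, Adgre1 among them, was 120392 in that array and 119498 to 143165 in the others, but the mean of the 9 genes, each centred on its log2 mean over the arrays, was -0.53 there and 0.03 to 0.27 elsewhere. Adgre1, Vcam1, C1qa and Mrc1 were lowest in that array, Marco and Csf1r were highest, and Spic, C1qb and Cd68 were neither. The part of these cells in the Bid value was not tested. The summed intensity of 8 exocrine pancreas genes, which mark neighbouring tissue, was 82613 in wild-type replicate 1 and 9921 to 21977 in the other arrays; none of them was at 0, and their part in the Bid value was not tested.

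Bcl2l11, which encodes Bim, also had wild-type replicate 1 as its low array, on 1 of its probe sets. Probe set 100988_at read 6713.2 and 6404.8 in knockouts, versus 3362.9 and 6345.8 in wild types. It was the only tested member whose genotypes did not overlap, with knockout above; 14.3% of all tested probe sets had knockout above in this way, and 26.4% were apart in either direction. The separation was narrow, since wild-type replicate 2 lay just under knockout replicate 2, and the difference of 0.51 (SE 0.45, 95% confidence interval -0.53 to 1.54, limma adjusted p = 0.992) was 0.047 without wild-type replicate 1. A different Bcl2l11 probe set, 99418_at, pointed the other way: 583.9 and 621.6 in knockouts, versus 933.7 and 531.0 in wild types, a difference of -0.23 (SE 0.50, limma adjusted p = 0.992). On both probe sets wild-type replicate 1 was the outlying array, at the low end of the first and the high end of the second. The dimmest, 99419_g_at, read 323.4 and 58.4 against 252.1 and 159.9 and was not tested.

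Bad, a BH3-only protein that growth factor signalling keeps inactive by phosphorylation, was nearly flat. Probe set 161500_i_at read 940.6 and 1120.4 in knockouts, versus 1008.7 and 902.3 in wild types, a difference of 0.11 (SE 0.42, 95% confidence interval -0.87 to 1.08, limma adjusted p = 0.994). The arrays interleaved. Its other probe set, 99670_at, was too dim to test, at 275.3 and 94.9 against 50.3 and 467.5.

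Bik, a BH3-only protein that binds Bcl2 and Bcl-xL, was too dim to test on its only probe set. It read 611.2 and 191.7 in knockouts, versus 142.0 and 482.7 in wild types. The replicates differed by 3.19-fold in knockout and 2.60-fold in wild type with the floor applied, so no difference between genotypes could be seen at this signal. Fitted without the filter on dim probe sets, the difference was 0.19 (SE 0.91, limma adjusted p = 1).

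**Figure D3:**
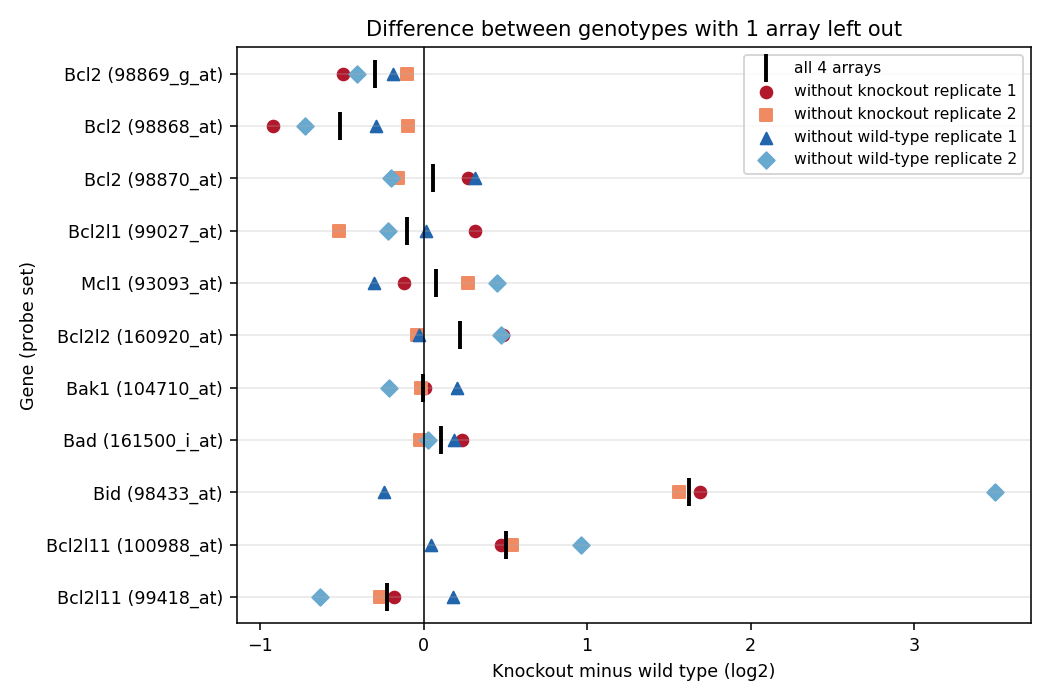
Knockout minus wild type (log2) of each tested Bcl2 family probe set with all 4 arrays (black bar) and with 1 array left out (coloured symbols). For Bid the difference runs from -0.24 without wild-type replicate 1 to 3.50 without wild-type replicate 2; 8 of the 11 probe sets take both signs.

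Prosurvival genes were then set against proapoptotic genes. Each gene's brightest tested probe set was centred on its mean over the 4 arrays and averaged within the class; this shows unequal change between arrays, and no gene's level is compared with another's. The prosurvival mean of 4 genes was -0.08 and 0.06 in knockouts and -0.09 and 0.11 in wild types. The knockout mean was -0.013 ± 0.10 (SD, n = 2) and the wild-type mean 0.013 ± 0.14, a difference of -0.03 that is smaller than either spread.

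The proapoptotic mean of 4 genes (Bak1, Bad, Bid and Bcl2l11) was 0.24 and 0.32 in knockouts; wild-type replicate 1 gave -0.79 and replicate 2 gave 0.23. The knockout mean of 0.28 ± 0.06 (SD, n = 2) exceeded the wild-type mean of -0.28 ± 0.72 by 0.56, which is under the spread of the wild type. By counts, 3 of the 4 measured higher, with a median of 0.31 beside 0.04 for all tested probe sets. Without wild-type replicate 1 the class difference was 0.05. Prosurvival minus proapoptotic was -0.32 and -0.26 in knockouts; wild-type replicate 1 gave 0.70 and replicate 2 gave -0.12. Its difference between genotypes, -0.58, became -0.18 on leaving out wild-type replicate 1 and -0.99 on leaving out replicate 2.

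Most of this came from Bid. With Bid left out, a choice made after its values were seen, the proapoptotic mean of the remaining 3 genes was 0.07 and 0.14 in knockouts, versus -0.16 and -0.05 in wild types, a difference of 0.20. Prosurvival minus proapoptotic was then -0.15 and -0.08 against 0.07 and 0.16. These differences of -0.23 and 0.20 come with groups that do not overlap and exceed the gaps between replicates, but they carry no test, and the gene left out was picked for its values. Bcl2l11 enters them by its brighter probe set, with a difference of 0.51, the largest of the genes kept. Its other tested probe set pointed the other way (-0.23), and Bak1 and Bad differed by -0.0042 and 0.11. With the tested probe sets of a gene averaged and Bid kept, the proapoptotic difference was 0.47. Averaging with Bid left out was not run, so whether the groups stay apart under that choice was not checked.

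**Figure D4:**
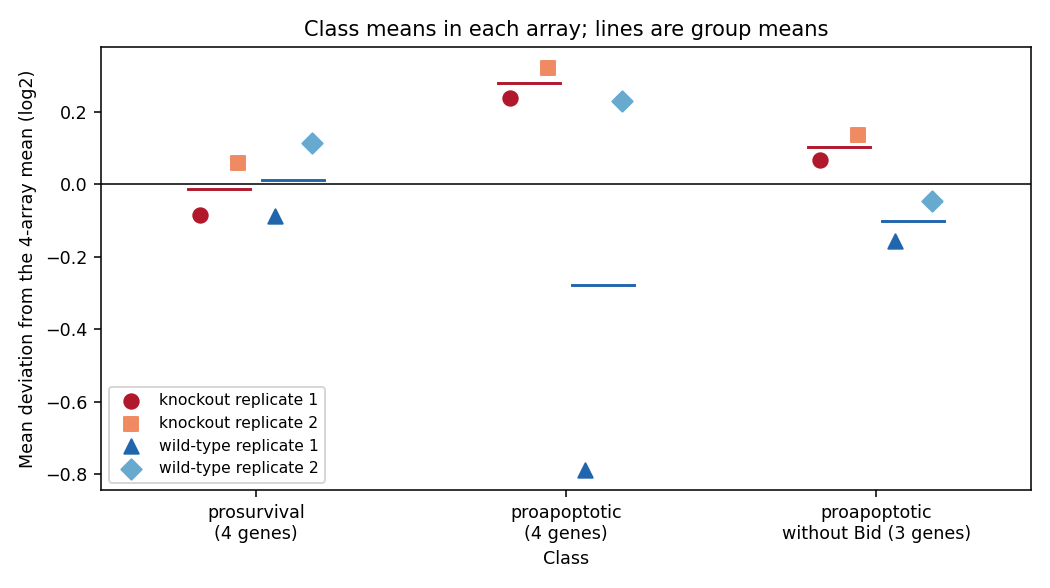
Mean deviation of each class from its 4-array mean (log2) in each array, with group means as lines, for 4 prosurvival genes, 4 proapoptotic genes and the 3 proapoptotic genes left without Bid. Wild-type replicate 1 sits at -0.79 in the proapoptotic class and at -0.16 once Bid is left out.

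Other genes of the pathway were read from the same fit. Of 17 further Bcl2 family genes, 7 are on the array and 6 were tested; 2 measured higher and 4 lower, with a median of -0.14, and none had an adjusted or unadjusted p under 0.05 in limma (lowest adjusted p = 0.992). Bnip1, a BH3-containing protein of the endoplasmic reticulum, read 1588.4 and 1562.4 in knockouts, versus 2192.4 and 1957.2 in wild types, a difference of -0.40 (SE 0.38). Bcl2l10 read 453.1 and 670.6 against 763.4 and 693.3. Both had each knockout array below each wild-type array, as did 12.2% of all tested probe sets. Bcl2l13, a mitochondrial family member, differed by 0.28 (SE 0.43) and Bnip3, a mitophagy receptor induced by low oxygen, by 0.19 (SE 0.48).

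At and beyond the mitochondrial step, 14 of 23 genes were tested, among them mitochondrial channels as well as genes of caspase activation and its inhibitors. Of these 10 measured higher and 4 lower, with a median of 0.11, and none passed either threshold in limma (lowest adjusted p = 0.992). Apaf1, the scaffold that binds cytochrome c, read 1149.5 and 1215.2 in knockouts; wild-type replicate 1 gave 373.4 and replicate 2 gave 1264.9. Casp9, the caspase that Apaf1 activates, read 2937.6 and 2271.4 against 1543.2 and 2554.8 on its brightest probe set. Wild-type replicate 1 was thus low in both, as for Bid. It was the highest array on the 2 dimmer tested probe sets of Casp9, which differed by -0.19 (SE 0.49) and -0.62 (SE 0.57). Without that array 7 of the 14 measured higher and 7 lower. Birc5, the mitotic inhibitor of apoptosis survivin, differed by -0.48 (SE 0.54), with knockout replicate 1 low at 2842.1 against 6453.1 to 8097.4. Vdac2, a mitochondrial channel that binds Bak, differed by 0.35 (SE 0.43). Cycs, which encodes cytochrome c and lay outside the naming rule, was chosen after its values were seen: 2365.2 and 2726.4 against 2342.6 and 2491.3.

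Among 30 regulators of Bcl2 family proteins or genes, 23 were tested, with 17 higher, 6 lower and a median of 0.13. Without wild-type replicate 1 these were 14 higher and 9 lower, with a median of 0.06. Over all tested probe sets with all 4 arrays, 4003 measured higher and 3449 lower. None of the 23 passed the adjusted threshold in limma (lowest adjusted p = 0.992). Over all tested probe sets 1.74% reached an unadjusted p under 0.05 in limma, and among the 23 genes 1 did. That gene, Fkbp8, encodes a mitochondrial protein that anchors Bcl2 and Bcl-xL. It read 3897.1 and 4640.2 in knockouts, versus 9510.8 and 8182.1 in wild types, a difference of -1.05 (SE 0.39, 95% confidence interval -1.96 to -0.14, limma adjusted p = 0.992). Unlike Bid, the separation did not depend on wild-type replicate 1, as both wild-type arrays lay well above both knockout arrays. Each knockout array lay below each wild-type array in 12.2% of all tested probe sets. Mapk8, the kinase JNK1, read 2886.2 and 2417.1 against 842.8 and 2154.8. The 14-3-3 genes Ywhaz and Ywhah, whose proteins hold phosphorylated Bad in the cytosol, differed by 1.19 (SE 0.70) and 0.98 (SE 0.66). Wild-type replicate 1 was the low array in both: Ywhaz read 3078.0 there and 15216.6 to 15661.3 elsewhere.

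Upstream of Bid, 7 of 10 death receptor and granzyme genes were tested, 5 higher and 2 lower with a median of 0.21. None passed either threshold in limma (lowest adjusted p = 0.992). Without wild-type replicate 1 they were again 5 higher and 2 lower, with a median of 0.09. Casp8, which cleaves Bid, read 1007.5 and 1303.4 in knockouts; wild-type replicate 1 gave 360.2 and replicate 2 gave 1611.6, so it was low in the same array as its substrate. Gzmb, granzyme B, read 702.0 and 777.4 against 403.8 and 722.6, and Fasl, the Fas ligand, 982.7 and 821.8 against 435.6 and 844.9. Tradd, an adaptor of the TNF receptor, went the other way, at 2605.9 and 5159.1 against 5907.5 and 3400.2. Over all tested probe sets, wild-type replicate 1 was the array farthest from the rest in 56.7%. It was so in 4 of 7 genes here, 13 of 23 regulators and 10 of 14 genes at and beyond the mitochondrial step.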

How the data were processed

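The deposited table holds 1 intensity on a linear scale for each of 12488 probe sets on each of 4 1-colour arrays; the sources used here do not give the authors' scaling or software. Trimmed means (2%) of the deposited arrays were nearly equal (2499 to 2500), from which earlier scaling was inferred, so no further scaling was applied. Control probe sets (66) were left out. Intensities under the pooled 25th percentile (185.5) were raised to it and log2 was taken, which understates differences of dim genes. Tested were 7453 probe sets whose mean log2 intensity exceeded its 40th percentile.

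Knockout was compared with wild type in limma 3.58.1 (R 4.3.3; lmFit, eBayes with intensity trend), two-sided, with p-values adjusted by Benjamini-Hochberg over the whole tested table (threshold 0.05). The procedure was tested on simulated data. Symbols came from the platform annotation; 10833 probe sets had 1, 396 several and 1193 none, and 10817 of those with 1 matched the RefSeq table by identifier. Where a gene had several probe sets, the brightest stood for it. Named were all member probe sets and up to 4 genes of each pathway list by smallest p. Members and lists were chosen with earlier results of these data known. Alternatives covered scaling, floor, filter, variance model, array weights, replicate block, threshold, probe set choice and each array left out. Figures used matplotlib 3.10.9 (Python 3.11.15).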

Additional observations from a re-analysis of the deposited data

How the results depend on the processing

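No member probe set passed an adjusted p of 0.05 in limma under any of the alternatives run (141 fits of single probe sets, lowest adjusted p = 0.0583, for Bid without wild-type replicate 2), and none passed at 0.1 with all 4 arrays. Over all probe sets the count of 4 became 0 when dim probe sets were kept, 7 at an adjusted p under 0.1 and from 3 to 13 with an array left out: 10 and 13 without knockout replicates 1 and 2, 3 and 5 without wild-type replicates 1 and 2. With the replicate number as a block it was 36, while Bid, the lowest among the members, had an adjusted p of 0.23. The labels do not tie same-numbered animals to each other, and deviations of same-numbered arrays from their group means correlated at 0.039, so the block has no stated basis. With an array left out, log2 differences that changed sign ran from -0.20 to 0.31 for Bcl2 (98870_at), -0.52 to 0.31 for Bcl2l1, -0.30 to 0.45 for Mcl1, -0.039 to 0.48 for Bcl2l2, -0.21 to 0.21 for Bak1, -0.020 to 0.23 for Bad, -0.24 to 3.50 for Bid and -0.63 to 0.18 for Bcl2l11 (99418_at). Bcl2 (98870_at) also changed sign with median centring (-0.0016) and quantile normalization (-0.019). The group that lost an array then held 1 sample, assumed to vary like the other pair. The cause of these changes was not tested. At the 60th percentile filter, Bad and Bcl2l11 (99418_at) were not tested. The number of arrays limits all of these values.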

Other observations

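Wild-type replicate 1 held, beside Bid and Adgre1, a few other transcripts far below the remaining arrays, named after their values were seen. Adam19, a metalloprotease gene, read 251.3 in it and 2409.4 to 3335.0 in the other 3 arrays. H1f2, a linker histone gene, read 102.8 against 1735.2 to 2796.1, and Tox4, a chromatin protein gene, 160.9 against 1710.7 to 2143.9. With Adgre1 and Bid these are the 5 tested probe sets furthest below the rest in that array once values are raised to the floor of 185.5. Adgre1, H1f2 and Tox4 lay under the floor there, as did 56 tested probe sets in all, and on the intensities as deposited the order differs: 14 probe sets lay further below than Bid.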
